A study of Mus musculus with 36 samples.

Results

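The Z-disc and titin genes described here are Ttn, Ldb3, Pdlim3, Pdlim5, Actn2, Myoz2, Tcap, Csrp3, Ankrd1 and Nebl. These 10 genes were chosen by symbol out of 55291 symbols in the deposited tables, and all 10 were among the 19231 genes that were expressed highly enough to be tested. RNA had been sequenced from left ventricle and from atria of CUG960 mice, a heart model of myotonic dystrophy type 1, in 6 cohorts with 3 libraries per cohort and tissue, 36 libraries in all. All animals were 21 weeks old and carried the same alleles, TREDT960I (homozygous) and MHCrtTA (hemizygous), so the controls carried both transgenes too. TREDT960I places human DMPK exons with interrupted CTG repeats under a tetracycline response element, and the MHCrtTA activator is driven by the cardiomyocyte α-myosin heavy chain promoter. The repeat RNA is therefore driven in cardiomyocytes, while the libraries came from whole chambers. The +dox cohort received doxycycline from the day after birth to the end. The +/–dox cohort was taken off doxycycline at 9 weeks, and the –dox cohort never received it. Mice of the other cohorts (MBNL1, MBNL2 and MBNL1+MBNL2) were kept on doxycycline and were given AAV9 vectors at 9 weeks, 12 weeks before collection, which express tagged human MBNL cDNAs from the human TNNT2 promoter.

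The Z-disc is the border of the sarcomere, where actin thin filaments of opposite polarity are cross-linked and where titin begins its span to the M-band. α-actinin forms the cross-links, and PDZ-LIM proteins, LIM proteins and small adaptors bind to it and to titin. Several of these proteins also carry signals on stretch and load, and mutations in many of their genes cause cardiomyopathy. The repeat RNA of myotonic dystrophy sequesters MBNL proteins, which regulate alternative splicing in the heart. The comparisons ask how the RNA of these genes differs between hearts with the repeat RNA, hearts without it, and hearts that received MBNL proteins.

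On GRCm38 (GENCODE M21), the giant spring protein titin is encoded by Ttn (ENSMUSG00000051747.14, chr2:76703980-76982547, minus strand). Nebl, for nebulette and the thin-filament protein Lasp2, lies on the same chromosome (ENSMUSG00000053702.16, chr2:17343909-17731464, minus strand). Actn2, for cardiac α-actinin, is ENSMUSG00000052374.16 (chr13:12269426-12340760, minus strand). The PDZ-LIM genes are Ldb3, also known as Cypher or ZASP (ENSMUSG00000021798.14, chr14:34526603-34588682, minus strand), Pdlim3 (ENSMUSG00000031636.7, chr8:45885461-45919548, plus strand) and Pdlim5 (ENSMUSG00000028273.15, chr3:142239590-142395696, minus strand). Myoz2 encodes the calcineurin-binding protein calsarcin-1 (ENSMUSG00000028116.13, chr3:123006206-123035015, minus strand). Tcap encodes telethonin, which caps the N-termini of a pair of titin molecules (ENSMUSG00000007877.2, chr11:98383811-98384953, plus strand). Csrp3 encodes the muscle LIM protein (ENSMUSG00000030470.15, chr7:48830398-48848033, minus strand). Ankrd1 encodes CARP, a stretch-responsive ankyrin repeat protein (ENSMUSG00000024803.9, chr19:36111961-36120099, minus strand). Antisense genes overlap Ttn and Nebl, but neither exceeded 0.291 CPM (counts scaled to library size by TMM) in any library, against at least 413 CPM for Nebl and 4742 CPM for Ttn.

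Promoters of members that moved in the ventricle are shown as RefSeq gives them on GRCm38.p6, 300 bases around the annotated start, 5′ to 3′ on the strand of the gene. They let the genes that rose without the repeat RNA (Ttn, Ldb3, Csrp3) be set beside those that fell (Myoz2, Nebl). For Nebl, which has 4 annotated starts, the outermost and the innermost are printed. Capitals mark matches to MCAT (CATTCC), MEF2 or CArG box motifs on either strand, none of which overlapped another.
Ttn, chr2:76982498-76982797: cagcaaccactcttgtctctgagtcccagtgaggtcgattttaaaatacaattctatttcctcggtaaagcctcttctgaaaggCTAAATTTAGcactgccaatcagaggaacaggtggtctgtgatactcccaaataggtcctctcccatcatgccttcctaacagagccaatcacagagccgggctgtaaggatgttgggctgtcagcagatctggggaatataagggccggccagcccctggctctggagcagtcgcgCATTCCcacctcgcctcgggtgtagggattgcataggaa
Ldb3, chr14:34588632-34588931: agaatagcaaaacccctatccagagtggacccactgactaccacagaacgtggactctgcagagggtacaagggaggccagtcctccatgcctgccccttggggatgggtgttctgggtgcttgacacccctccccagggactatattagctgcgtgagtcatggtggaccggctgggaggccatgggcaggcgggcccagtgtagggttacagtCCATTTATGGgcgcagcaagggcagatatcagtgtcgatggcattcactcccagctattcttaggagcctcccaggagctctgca
Csrp3, chr7:48848002-48848301: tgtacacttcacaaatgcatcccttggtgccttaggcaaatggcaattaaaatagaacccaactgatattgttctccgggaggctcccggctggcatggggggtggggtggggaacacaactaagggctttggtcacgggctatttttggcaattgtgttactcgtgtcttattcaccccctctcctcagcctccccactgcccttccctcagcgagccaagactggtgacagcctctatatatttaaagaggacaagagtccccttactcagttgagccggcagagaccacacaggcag
Myoz2, chr3:123034938-123035237: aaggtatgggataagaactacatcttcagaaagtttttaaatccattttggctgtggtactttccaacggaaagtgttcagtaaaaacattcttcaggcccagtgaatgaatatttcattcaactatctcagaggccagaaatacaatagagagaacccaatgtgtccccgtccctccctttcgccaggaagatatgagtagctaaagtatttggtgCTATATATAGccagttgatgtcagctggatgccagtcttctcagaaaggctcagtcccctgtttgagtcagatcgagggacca
Nebl (outermost), chr2:17731085-17731384: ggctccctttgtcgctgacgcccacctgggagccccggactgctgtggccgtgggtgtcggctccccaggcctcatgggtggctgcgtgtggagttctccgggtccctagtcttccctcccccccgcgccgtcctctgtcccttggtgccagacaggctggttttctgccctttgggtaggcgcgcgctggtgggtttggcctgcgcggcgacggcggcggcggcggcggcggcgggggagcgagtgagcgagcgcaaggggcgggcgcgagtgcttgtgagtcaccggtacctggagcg
Nebl (internal), chr2:17462807-17463106: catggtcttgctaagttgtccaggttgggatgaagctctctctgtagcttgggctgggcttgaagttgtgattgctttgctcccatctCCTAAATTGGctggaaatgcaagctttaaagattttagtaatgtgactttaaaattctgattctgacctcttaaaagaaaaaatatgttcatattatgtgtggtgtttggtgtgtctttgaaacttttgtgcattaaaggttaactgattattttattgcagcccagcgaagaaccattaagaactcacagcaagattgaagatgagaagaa
The Ttn promoter held an MCAT and a MEF2 match, Myoz2 a MEF2 match, and Ldb3 and the internal Nebl start a CArG box, while the Csrp3 window and the outermost Nebl window held none of these. Of 15 promoters of 9 members, 4 held MCAT, 2 held MEF2 and 3 held a CArG box. The shares among all 32851 promoters were 14.7%, 3.19% and 1.63%. The CArG box windows came from 2 of the 9 members, because overlapping Ldb3 windows held the same site. An E-box (CANNTG) lay in 11 of the 15 (72.3% of all promoters) and a TATA box (TATAAA) in 1 (13.6%). No promoter is shown for Tcap. A match is a description of the letters and not a binding site.

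Total expected counts per library ranged from about 55032000 to 97091000. The cardiomyocyte markers (Myh6, Tnnt2, Tnni3, Actc1 and Mybpc3) summed to 39276 to 60999 CPM in the 36 libraries, so the members were read in tissue rich in cardiomyocytes. The ventricular markers (Myl2, Myl3 and Irx4) summed to at least 9017 CPM in ventricle and at most 247 CPM in atria, and the atrial markers (Myl7, Myl4, Sln, Nppa and Bmp10) to at least 15152 CPM in atria and at most 568 CPM in ventricle. Replicate 3 of the +dox cohort stood apart. It held the lowest CPM of the 3 +dox libraries for 8 of the 10 members in ventricle and 9 of 10 in atria, against 42.8% and 41.3% of all tested genes. Library names fall into 2 sets, and set B holds replicate 3 of each cohort and all MBNL1+MBNL2 libraries. Xist, the RNA that coats the inactive X chromosome of females, was at 192 to 443 CPM in replicate 3 of every cohort but MBNL1+MBNL2, in both chambers, and at most 2.2 CPM in the other 26 libraries. The study's sample list likewise gives a female mouse in each of these cohorts and only males in MBNL1+MBNL2. Replicate 3 of the +dox cohort thus differs from the other +dox libraries in sex and in library set, and the parts of these cannot be told apart. The same list names the same animals for ventricle and atria but does not tie them to replicate numbers, and same-numbered libraries of a cohort were taken as 1 animal where the chambers were compared with the animal as a block.

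Per unit of length (TPM, the share of transcripts that RSEM gives each gene), Tcap was the most abundant member and Pdlim3 the least abundant in the ventricle of both –dox and +dox mice. In –dox ventricle the order was Tcap (1694 ± 171 TPM, SD, n = 3), Csrp3 (1564 ± 170), Ankrd1 (1224 ± 236), Actn2 (786 ± 51.8), Myoz2 (714 ± 78.1), Pdlim5 (603 ± 69.8), Ldb3 (562 ± 43.5), Ttn (158 ± 7.64), Nebl (81.7 ± 5.60) and Pdlim3 (11.1 ± 1.02). The libraries of neighbouring genes overlapped from Tcap to Ankrd1 and from Actn2 to Ldb3, so the order within each of these runs is not larger than the spread. Ankrd1 and Actn2, Ldb3 and Ttn, Ttn and Nebl, and Nebl and Pdlim3 did not overlap. In +dox ventricle, Nebl (154 ± 15.8 TPM) stood above Ttn (122 ± 7.35 TPM), the reverse of the –dox order, and neither pair overlapped. Because of its length, Ttn alone took 0.514 to 0.988% of all counts per library.

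**Figure D1:**
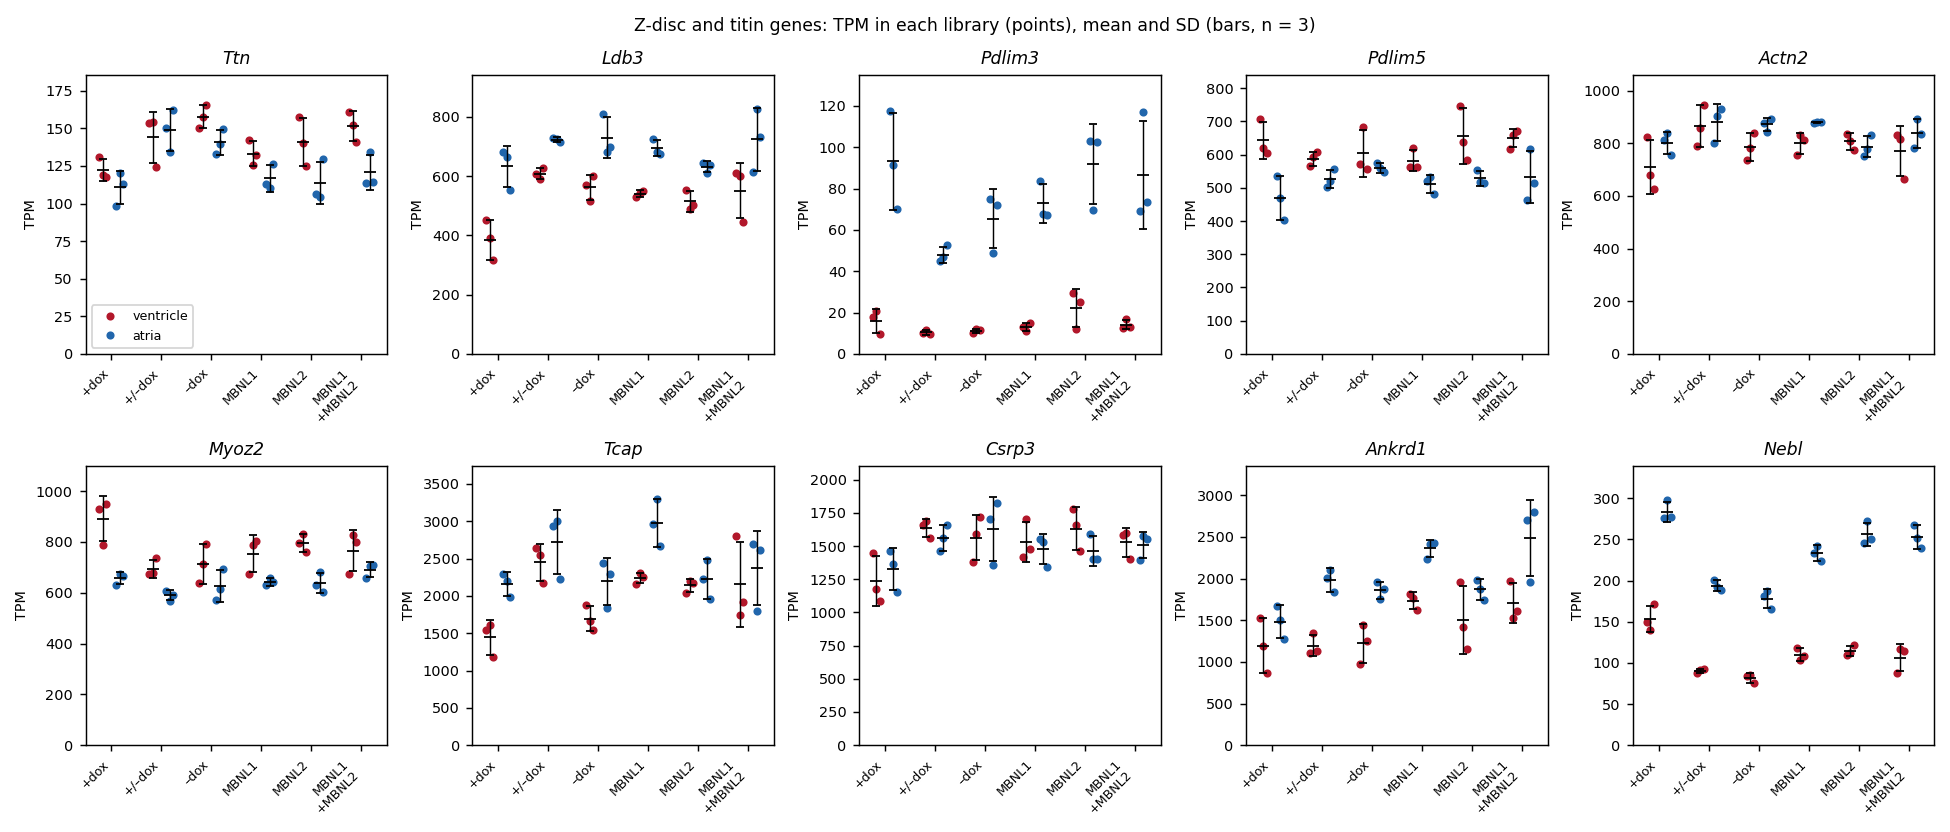
TPM of the 10 members in each of the 36 libraries, by cohort (x axis), with ventricle in red and atria in blue. Bars give the mean and SD of 3 libraries. Nebl is highest in +dox mice of both chambers, at 141 to 171 TPM in ventricle and 276 to 298 TPM in atria.

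In the ventricle, removal of the repeat RNA went with less Nebl and Myoz2 RNA and with more Ttn, Ldb3 and Csrp3 RNA. With –dox set against +dox mice, 5 of 10 members passed an adjusted p of 0.05 (20.9% of all genes did), 3 higher and 2 lower in –dox. With a fold of at least 1.5 as well, only Nebl was called (7.6% of all genes). The median log2 fold change of the members was 0.12, beside 0.01 for all genes. With +/–dox set against +dox mice, 6 of 10 passed (21.8% of all genes), 4 higher and 2 lower, and Tcap alone was called (6.6%). In bulk tissue, fewer cells of a type and less RNA per cell cannot be told apart. Endothelial markers moved too: all 4 (Pecam1, Cdh5, Kdr and Tie1) rose in –dox ventricle, from a sum of 488 to 521 CPM in +dox to 656 to 757 CPM. Their part in the members' changes was not tested. In +/–dox ventricle all 4 rose too, to 664 to 678 CPM. The cardiomyocyte marker sum was 46672 to 53453 CPM in +dox, 51384 to 54139 CPM in –dox and 59404 to 60999 CPM in +/–dox ventricle.

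Nebl, whose product nebulette binds actin near the Z-disc, fell. Its level was 149, 141 and 171 TPM in the +dox ventricles, 84.4, 85.3 and 75.2 TPM in –dox and 87.8, 90.9 and 92.2 TPM in +/–dox. The +dox libraries lay above all libraries of the other 2 cohorts. On counts, the log2 fold change was −0.67 (SE 0.09, adjusted p = 3.1e-06) in –dox and −0.55 (SE 0.09, adjusted p = 7.2e-05) in +/–dox. On log2(TPM + 1) it was −0.90 (SE 0.09) and −0.76 (SE 0.09), where TPM also divides by the mean transcript length of Nebl, which differed between the cohorts. Myoz2, an inhibitor of calcineurin at the Z-disc, fell less: it was at 931, 788 and 951 TPM in +dox, 637, 711 and 793 TPM in –dox and 673, 676 and 736 TPM in +/–dox. By TPM, 1 –dox library was above the lowest +dox library, and by CPM the cohorts did not overlap. The log2 fold change was −0.27 (SE 0.08, adjusted p = 0.0091) in –dox and −0.33 (SE 0.08, adjusted p = 0.0017) in +/–dox. The –dox change did not pass without +dox replicate 1 (−0.24) or –dox replicate 1 (−0.22).

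Ttn was at 131, 119 and 118 TPM in the +dox ventricles, 150, 158 and 166 TPM in –dox and 154, 154 and 124 TPM in +/–dox. All –dox libraries exceeded all +dox libraries, with a log2 fold change of 0.36 (SE 0.11, adjusted p = 0.013), whereas replicate 3 of +/–dox lay among the +dox libraries and the change was 0.21 (SE 0.11, adjusted p = 0.17). Without that library Ttn rose by 0.35 in +/–dox, and without +dox replicate 3 the –dox change of Ttn was 0.28 and did not pass. Ldb3, a PDZ-LIM protein that binds α-actinin, was at 451, 390 and 316 TPM in +dox, 570, 515 and 601 TPM in –dox and 607, 589 and 626 TPM in +/–dox, and +dox did not overlap the others. On counts the rise of Ldb3 was 0.30 (SE 0.11, adjusted p = 0.040) in –dox and 0.35 (SE 0.11, adjusted p = 0.016) in +/–dox. On log2(TPM + 1) these changes were 0.55 (SE 0.11, limma adjusted p = 0.00082) and 0.67 (SE 0.11, limma adjusted p = 0.00012). There TPM also divides by the mean transcript length of Ldb3, which was shorter in both cohorts than in +dox. The count-based rise of Ldb3 in –dox was lost when any of 5 of the 6 libraries was left out (all but +dox replicate 1). Without +dox replicate 3 the count-based values were 0.17 and 0.22, and neither passed.

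Csrp3, which links α-actinin to actin and senses load, was at 1450, 1173 and 1087 TPM in +dox, 1383, 1590 and 1720 TPM in –dox and 1657, 1688 and 1562 TPM in +/–dox. The +/–dox libraries of Csrp3 all exceeded the +dox libraries by TPM, and 1 –dox library did not. Csrp3 rose by 0.39 (SE 0.12, adjusted p = 0.020) in –dox and 0.44 (SE 0.12, adjusted p = 0.0089) in +/–dox. Without +dox replicate 3 the Csrp3 values were 0.28 and 0.33 and neither passed. The –dox change of Csrp3 also did not pass without +dox replicate 2 (0.37), –dox replicate 2 (0.36) or –dox replicate 3 (0.35). Tcap was at 1538, 1614 and 1179 TPM in +dox, 2642, 2541 and 2171 TPM in +/–dox and 1880, 1657 and 1544 TPM in –dox. Tcap rose in +/–dox (0.79, SE 0.19, adjusted p = 0.0035), where all libraries exceeded the +dox libraries, and stayed past the threshold with any library left out. In –dox the Tcap change was 0.28 (SE 0.19, adjusted p = 0.33). Actn2 was at 823, 678 and 626 TPM in +dox, 788, 857 and 947 TPM in +/–dox and 736, 783 and 840 TPM in –dox. The Actn2 cohorts overlapped, with a rise of 0.29 (SE 0.09, adjusted p = 0.028) in +/–dox and a change of 0.18 (SE 0.09, adjusted p = 0.19) in –dox. The rise of Actn2 was lost without +dox replicate 2 (0.29), +dox replicate 3 (0.16), +/–dox replicate 2 (0.27) or +/–dox replicate 3 (0.25).

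The other 3 members did not pass in either comparison. Pdlim3, the PDZ-LIM protein ALP, was at 17.7, 20.5 and 9.59 TPM in +dox and 10.01, 12.0 and 11.4 TPM in –dox ventricle, a log2 fold change of −0.52 (SE 0.29, adjusted p = 0.23). In +/–dox it was −0.63 (SE 0.29, adjusted p = 0.13), and without +dox replicate 3 it was −0.91 and passed. Pdlim5 (ENH), a PDZ-LIM anchor of protein kinases, changed by 0.03 (SE 0.10, adjusted p = 0.89) in –dox and −0.06 (SE 0.10, adjusted p = 0.76) in +/–dox. Ankrd1 changed by 0.07 (SE 0.20, adjusted p = 0.86) and 0.01 (SE 0.20, adjusted p = 0.99), over a range of 861 to 1523 TPM among the +dox libraries alone.

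**Figure D2:**
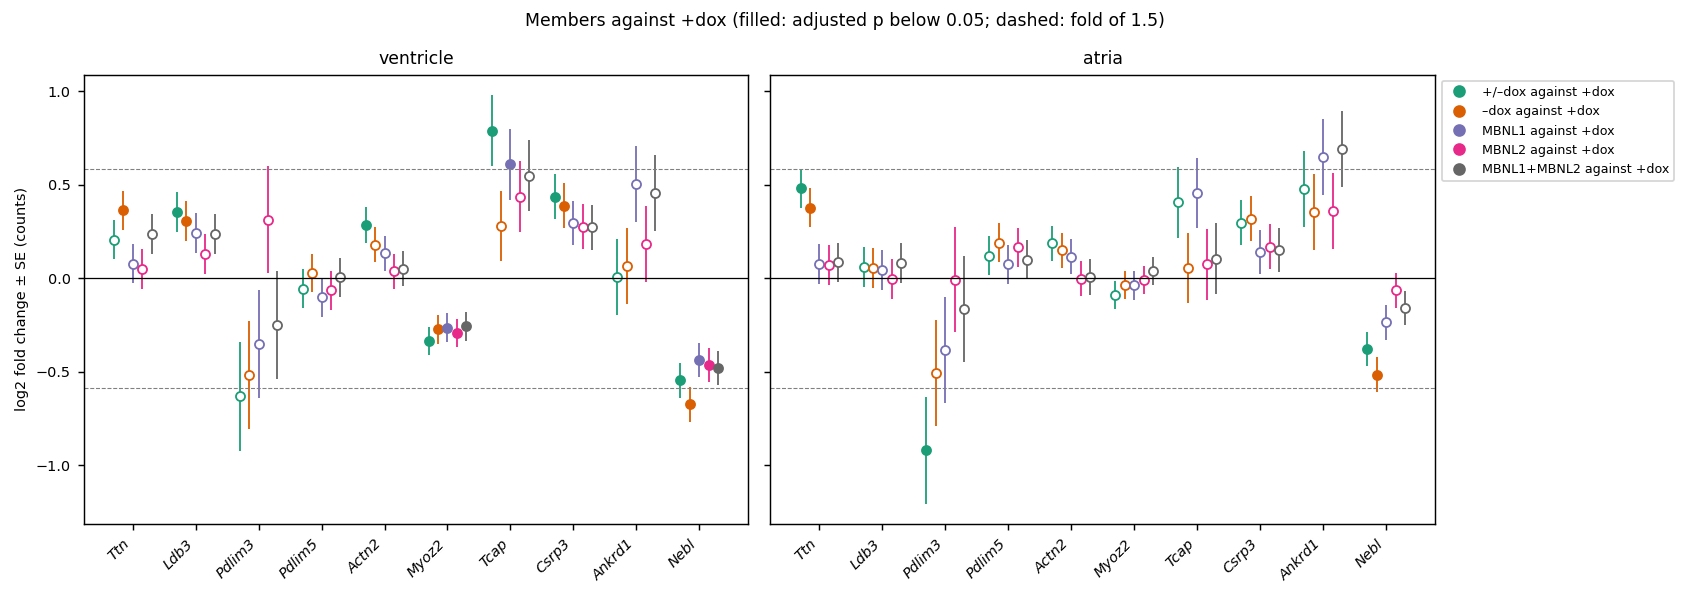
Log2 fold change on counts with SE for each member (x axis) and cohort against +dox, in ventricle and atria. Filled points passed an adjusted p of 0.05 and dashed lines mark a fold of 1.5. Nebl lies below 0 in all 5 ventricular comparisons, from −0.44 to −0.67.

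With MBNL proteins supplied while the repeat RNA stayed on, Nebl and Myoz2 fell in the ventricle as well, and Tcap rose with MBNL1. The +dox libraries come from mice given no vector, and the study's tdTomato vector cohort is not among the libraries. In either chamber, vector delivery and MBNL expression therefore cannot be told apart when MBNL cohorts are compared with the others. Nebl was at 118, 103 and 109 TPM with MBNL1, 110, 112 and 122 TPM with MBNL2 and 87.2, 116 and 115 TPM with MBNL1+MBNL2. All were below the 3 +dox libraries and, by TPM, above the 3 –dox libraries. By CPM, MBNL2 replicate 1 (513 CPM) and MBNL1+MBNL2 replicate 1 (484 CPM) lay among the –dox libraries (413 to 515 CPM). The log2 fold changes of Nebl against +dox were −0.44 (SE 0.09, adjusted p = 0.0033), −0.46 (SE 0.09, adjusted p = 0.0028) and −0.48 (SE 0.09, adjusted p = 0.0011). Nebl passed with any 1 library left out. Under the other processing settings Nebl passed in 8 of 9 with MBNL1, 9 of 9 with MBNL2 and 8 of 8 with MBNL1+MBNL2. Myoz2 changed by −0.26 (edgeR adjusted p = 0.026), −0.29 (adjusted p = 0.017) and −0.26 (adjusted p = 0.030), SE 0.08 each. Each of these 3 changes no longer passed when any of 4 of the 6 libraries was left out, with values from −0.34 to −0.19. Tcap with MBNL1 was at 2162, 2305 and 2253 TPM, above all +dox libraries, with a rise of 0.61 (SE 0.19, adjusted p = 0.042). That call for Tcap was lost when any library but +dox replicate 2 was left out, and without +dox replicate 3 its value was 0.46. The endothelial marker sum was higher in every MBNL ventricle (528 to 646 CPM) than in every +dox ventricle, with 1 of 4 markers passing with MBNL1, 0 with MBNL2 and 1 with MBNL1+MBNL2, and its part in these changes was not tested.

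Counted over the members, 3 of 10 passed with MBNL1 (8.95% of all genes), and Tcap alone was called with the fold as well (2.66%). With MBNL2, 2 of 10 passed (7.43%) and 0 were called (1.52%). With MBNL1+MBNL2, 2 of 10 passed (8.34%) and 0 were called (2.65%). Ttn, Ldb3, Actn2 and Csrp3 passed in no MBNL cohort of the ventricle: their log2 fold changes were 0.05 to 0.24 for Ttn, 0.13 to 0.24 for Ldb3, 0.04 to 0.13 for Actn2 and 0.27 to 0.30 for Csrp3. Ldb3 was above all +dox libraries on the TPM scale with MBNL1 (529 to 550 TPM) and MBNL2 (488 to 554 TPM). On log2(TPM + 1) it rose in all 3 cohorts (0.50, 0.43 and 0.52, limma adjusted p = 0.0080, 0.020 and 0.0058). TPM also divides by the mean transcript length of Ldb3, which was shorter in all libraries of these cohorts than in +dox. All MBNL1+MBNL2 libraries are in set B. With library set as a term, Ttn (0.41), Ldb3 (0.32), Tcap (0.73), Csrp3 (0.40) and Ankrd1 (0.75) also passed in MBNL1+MBNL2 ventricle. That term rests on replicate 3 of the other cohorts, all with high Xist, while no MBNL1+MBNL2 library has it, so set and sex cannot be told apart in these values.

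In the atria, Nebl again fell and Ttn rose when the repeat RNA was off, and Pdlim3 fell in +/–dox. With –dox, 2 of 10 members passed (15.9% of all genes) and 0 were called (5.23%). With +/–dox, 3 of 10 passed (12.6%), and Pdlim3 was called (3.99%). Nebl was at 276, 298 and 277 TPM in the +dox atria, 182, 187 and 166 TPM in –dox and 201, 192 and 188 TPM in +/–dox, with no overlap between +dox and the others. Its log2 fold change was −0.52 (SE 0.09, adjusted p = 0.00018) in –dox and −0.38 (SE 0.09, adjusted p = 0.0054) in +/–dox, the latter lost without +/–dox replicate 3 (−0.32). Ttn was at 98.5, 120 and 113 TPM in +dox, 133, 140 and 150 TPM in –dox and 150, 134 and 162 TPM in +/–dox. Ttn did not overlap either, and rose by 0.38 (SE 0.11, adjusted p = 0.013) and 0.48 (SE 0.11, adjusted p = 0.0022). Without +dox replicate 1 the –dox change of Ttn was 0.33 and did not pass.

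Pdlim3 was at 117, 91.6 and 70.3 TPM in the +dox atria and 44.9, 46.7 and 52.5 TPM in +/–dox. All +/–dox libraries were below all +dox libraries, with a log2 fold change of −0.92 (SE 0.28, adjusted p = 0.033). The call held only with +dox replicate 3 left out (−1.12). It was lost without +dox replicate 1 (−0.67), +dox replicate 2 (−0.94), or any +/–dox library (−0.87, −0.96 and −0.95). In –dox atria Pdlim3 was at 75.1, 49.0 and 71.8 TPM, overlapping +dox (−0.51, SE 0.28, adjusted p = 0.24). Ldb3 and Myoz2, which moved in the ventricle, changed in the atria by 0.06 (SE 0.11, adjusted p = 0.78) and −0.04 (SE 0.08, adjusted p = 0.80) in –dox. Ankrd1 was at 1672, 1506 and 1270 TPM in +dox atria, 1958, 1755 and 1874 TPM in –dox and 2011, 2108 and 1833 TPM in +/–dox. All +dox libraries lay below those of the other 2 cohorts, but the changes of 0.36 (SE 0.20, adjusted p = 0.26) and 0.48 (SE 0.20, adjusted p = 0.14) did not pass. Marker sums moved in these atria as well. The endothelial sum was 387 to 410 CPM in +dox, 504 to 539 CPM in –dox (3 of 4 markers rose) and 446 to 497 CPM in +/–dox (1 of 4). The fibroblast sum (Col1a1, Col1a2, Dcn, Lum and Pdgfra) was 1372 to 1526 CPM in +dox, 1760 to 1879 CPM in –dox (2 of 5 rose) and 1637 to 1927 CPM in +/–dox (1 of 5). The atrial marker sum was 15152 to 17566 CPM in +dox, 21941 to 23437 CPM in –dox and 22528 to 25570 CPM in +/–dox, with 0 of 5 markers passing. The cardiomyocyte sum was 43434 to 48717 CPM in +dox, 46179 to 48265 CPM in –dox and 50129 to 58167 CPM in +/–dox atria. The part of these shifts in the changes of Nebl, Ttn and Pdlim3 was not tested.

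No member passed in the atria of an MBNL cohort against +dox: 0 of 10 with MBNL1 (0.348% of all genes passed and 0.13% were called), 0 of 10 with MBNL2 (0.0104% and 0.0052%) and 0 of 10 with MBNL1+MBNL2 (0.686% and 0.26%). Ankrd1 had the largest positive values, 0.65 (SE 0.20, adjusted p = 0.23) with MBNL1 and 0.69 (SE 0.20, adjusted p = 0.15) with MBNL1+MBNL2. Its atrial libraries were at 2238, 2418 and 2428 TPM with MBNL1 and 2701, 1960 and 2797 TPM with MBNL1+MBNL2, all above +dox. With DESeq2 the Ankrd1 rise in MBNL1+MBNL2 atria passed (adjusted p = 0.044). Nebl was at 234, 243 and 224 TPM with MBNL1, below all +dox libraries on this scale, and its change on counts was −0.24 (SE 0.09, adjusted p = 0.43).

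The difference between the chambers in these responses was tested directly, and no member passed. Of all genes, 1.03% passed for –dox, 0.692% for +/–dox, 0.0312% for MBNL1, 0.0364% for MBNL2 and 0.0728% for MBNL1+MBNL2. The member with the smallest adjusted p was Nebl in MBNL2 mice, whose ventricle minus atria difference was −0.40 (SE 0.13, adjusted p = 0.23). For Myoz2, the difference was −0.24 (SE 0.11) in –dox, with an adjusted p of 0.40. These errors treat the chambers as separate animals. With the animal as a block no member passed either, while the shares of all genes rose to 3.08%, 3.1%, 0.114%, 0.868% and 0.374%. The smallest adjusted p of a member was then 0.079, for Myoz2 in MBNL2 mice (−0.28, SE 0.08). The ventricle and atria thus cannot be said to differ for any member, and equally they are not shown to respond alike.

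Set against +/–dox mice, in which the repeat RNA had been off since 9 weeks, no member passed in –dox mice of either tissue. The counts were 0 of 10 in ventricle (0.0572% of all genes passed and 0.0312% were called) and 0 of 10 in atria (0.0208% and 0.0104%). This does not show equal levels. Tcap in ventricle, at 2642, 2541 and 2171 TPM in +/–dox and 1880, 1657 and 1544 TPM in –dox, did not overlap. No member passed between the MBNL cohorts and +/–dox in ventricle: 0 of 10 with MBNL1 (2.67% of all genes passed, 0.868% were called), MBNL2 (5.39% and 1.57%) and MBNL1+MBNL2 (1.77% and 0.53%). In atria, Ttn was lower than in +/–dox mice in each MBNL cohort. Its log2 fold change was −0.41 (SE 0.11, adjusted p = 0.021) with MBNL1, −0.41 (SE 0.11, adjusted p = 0.010) with MBNL2 and −0.40 (SE 0.11, adjusted p = 0.019) with MBNL1+MBNL2. In these comparisons the +/–dox atria held 150, 134 and 162 Ttn TPM, and the MBNL atria 104 to 134 TPM. With 1 library left out, Ttn no longer passed in 4 of 6 cases with MBNL1, 2 of 6 with MBNL2 and 4 of 6 with MBNL1+MBNL2, at values between −0.48 and −0.35. With MBNL2, Pdlim3 (0.91, SE 0.28, adjusted p = 0.038) and Nebl (0.31, SE 0.09, adjusted p = 0.024) were higher than in +/–dox atria. Pdlim3 passed in 1 of 6 cases with a library left out (values 0.79 to 1.06) and Nebl in 2 of 6 (0.25 to 0.37). In all, 1 of 10 members passed with MBNL1 (4.6% of all genes) and 0 were called (1.21%). With MBNL2, 3 of 10 passed (11%) and 1 was called (3.24%). With MBNL1+MBNL2, 1 of 10 passed (6.86%) and 0 were called (1.71%). All comparisons with +dox share the same +dox libraries, and those with +/–dox the same +/–dox libraries.

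The tables also hold information on the mix of transcripts. Since RSEM scales TPM by a mean length of a gene's expressed transcripts, the ratio of count to TPM within a library tracks that length. The ratio was set to kilobases on 510 genes with 1 annotated transcript of at least 2000 bases. Short transcripts read too low on this scale: Tcap, with 1 annotated transcript of 948 bases, was at 0.757 to 0.790 kb. Kilobases and percent differences below are therefore on this scale and are not annotated lengths. Ldb3 and Nebl shifted, in opposite directions. GENCODE M21 lists 7 protein-coding Ldb3 transcripts of 1499 to 5119 bases and 7 of Nebl of 393 to 8079 bases, among them Nebl-201 (5780 bases, starting near the outer end of the gene) and Nebl-202 (8079 bases, from an internal start). Which transcripts shifted is not resolved by these tables. The mean Ldb3 length in ventricle was 2.81, 2.71 and 2.97 kb in +dox, 2.28, 2.40 and 2.36 kb in –dox and 2.24, 2.31 and 2.30 kb in +/–dox. Ldb3 transcripts were thus 17.1% and 19.2% shorter without the repeat RNA, with log2 differences of −0.27 (SE 0.04, adjusted p = 4.8e-05) and −0.31 (SE 0.04, adjusted p = 6.1e-06) and no overlap with +dox. The mean Nebl length in ventricle was 5.92, 5.99 and 5.86 kb in +dox, 6.70, 6.78 and 6.85 kb in –dox and 6.98, 6.75 and 6.83 kb in +/–dox. Nebl transcripts were 14.4% and 15.7% longer, with log2 differences of 0.19 (SE 0.03, adjusted p = 2.2e-05) and 0.21 (SE 0.03, adjusted p = 6.1e-06). These ventricular shifts of both genes passed with any library left out.

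**Figure D3:**
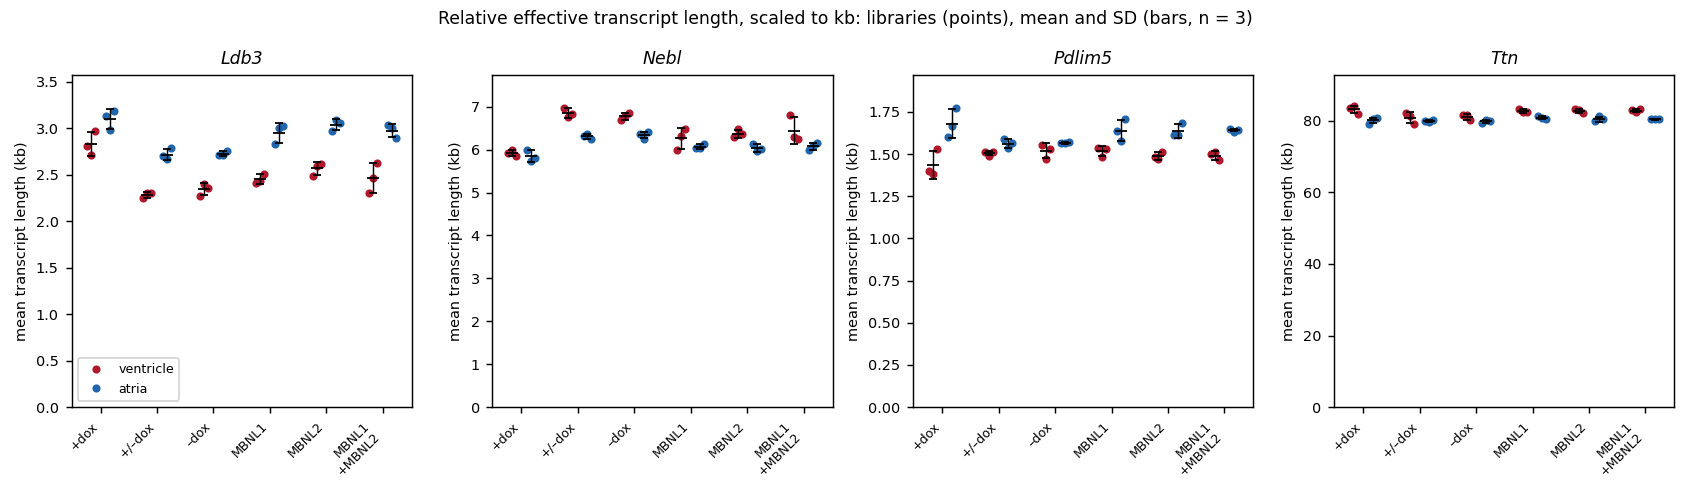
Mean expressed transcript length in kilobases (y axis, from count and TPM) of Ldb3, Nebl, Pdlim5 and Ttn in each library, by cohort, with the mean and SD of 3 libraries as bars. In ventricle (red), the +dox libraries lie at 2.71 to 2.97 kb for Ldb3 and 5.86 to 5.99 kb for Nebl, apart from all –dox and +/–dox libraries.

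Of the 10 members, 2 passed this test in –dox ventricle (1.68% of 10871 genes did) and 3 in +/–dox ventricle (2%). The third was Ttn, at 83.5, 83.9 and 81.9 kb in +dox and 82.0, 81.3 and 79.1 kb in +/–dox, which overlapped (−0.04, SE 0.01, adjusted p = 0.033). Over the 36 libraries, single values spanned 6.16% for Ttn, 4.38% for Tcap, with 1 annotated transcript, and 0.48% for Actn2. Such spans are not differences of cohort means, so the Ttn shift cannot be weighed against them. The Ttn call was lost without +dox replicate 1 or 2 or +/–dox replicate 3. Although MBNL1+MBNL2 replicate 1 was below the –dox mean, the Ldb3 length in the MBNL cohorts lay between +dox and –dox by cohort mean. It was at 2.41, 2.43 and 2.51 kb with MBNL1 (−0.21, SE 0.04, adjusted p = 0.0042), 2.49, 2.60 and 2.61 kb with MBNL2 (−0.14, SE 0.04, adjusted p = 0.14) and 2.30, 2.46 and 2.62 kb with MBNL1+MBNL2 (−0.20, SE 0.04, adjusted p = 0.0049). All of these Ldb3 libraries lay below the +dox libraries, and the MBNL1+MBNL2 call was lost without its replicate 1 (−0.15). Nebl was 5.68% longer than in +dox with MBNL1 (adjusted p = 0.15), 7.57% with MBNL2 (adjusted p = 0.095) and 8.71% with MBNL1+MBNL2 (adjusted p = 0.018). That last Nebl call was lost without +dox replicate 1 (0.12) or MBNL1+MBNL2 replicate 1 (0.08). Without +dox replicate 3, Ldb3 (−0.10) and Nebl (0.10) also passed with MBNL2. Hence 1 of 10 members passed with MBNL1 (1.18% of all genes), 0 with MBNL2 (0.248%) and 2 with MBNL1+MBNL2 (0.745%).

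In atria, Ldb3 was at 3.13, 2.98 and 3.18 kb in +dox, 2.71, 2.71 and 2.75 kb in –dox and 2.7, 2.67 and 2.79 kb in +/–dox, which did not overlap +dox. The differences were −0.18 (SE 0.04, adjusted p = 0.0069) and −0.19 (SE 0.04, adjusted p = 0.0049). Nebl was at 6.00, 5.73 and 5.80 kb in +dox, 6.36, 6.25 and 6.4 kb in –dox and 6.31, 6.37 and 6.25 kb in +/–dox, 8.52% longer (adjusted p = 0.011) and 8.04% longer (adjusted p = 0.019). The atrial Nebl calls were each lost in 4 of 6 cases with 1 library left out. Over all 6 cases the Nebl values were 0.10 to 0.14 in –dox and 0.10 to 0.13 in +/–dox. The Ldb3 call in –dox was lost without +dox replicate 3 (−0.16). In library set A alone none of the 4 atrial calls passed: adjusted p was 0.18 and 0.13 for Nebl and 0.082 and 0.054 for Ldb3. The count was 2 of 10 in –dox (1.49% of all genes) and 2 of 10 in +/–dox (1.46%). In the MBNL cohorts 0 of 10 passed in atria, with background shares of 0.092%, 0.0184% and 0.129% for MBNL1, MBNL2 and MBNL1+MBNL2. Against +/–dox, Nebl was shorter with MBNL1 in ventricle (−0.13, SE 0.03, adjusted p = 0.013, 1 of 10 members against 0.515% of genes). Ldb3 was longer with MBNL2 in ventricle (0.17, SE 0.04, adjusted p = 0.033, 1 of 10 against 0.497%) and in atria (0.16, SE 0.04, adjusted p = 0.030, 1 of 10 against 0.984%). Leaving out 1 library ended these calls in 3, 5 and 4 of 6 cases. No member passed against +/–dox with MBNL1+MBNL2 in ventricle (0.267%), or with MBNL1 (0.515%) or MBNL1+MBNL2 (0.543%) in atria. The chamber difference of these length shifts was not past the threshold for Ldb3 or Nebl in any cohort, also with the animal as a block. Pdlim5 also had a wide range, at 1.38 to 1.53 kb in +dox ventricle and 1.60 to 1.77 kb in +dox atria, and passed in no comparison, although without +dox replicate 3 it passed in all 5 ventricular comparisons with +dox (0.10 to 0.13). The ventricle minus atria difference of its length shift was 0.18 in –dox (SE 0.05, adjusted p = 0.67) and 0.17 in +/–dox (SE 0.05, adjusted p = 0.73). With the animal as a block the same differences of Pdlim5 had an SE of 0.02 and passed (adjusted p = 0.025 and 0.048), as did 0.0276% of all genes in each comparison. Between the lowest and the highest of the 36 libraries, the length of the remaining members varied by 0.48% for Actn2, 0.67% for Ankrd1, 2.64% for Pdlim3, 2.84% for Myoz2, 4.38% for Tcap and 5.08% for Csrp3, beside 6.16% for Ttn.

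Without the repeat RNA, the chambers differed in most members. In –dox mice, 7 of 10 members passed between ventricle and atria on counts (42.6% of all genes did), 5 higher and 2 lower in ventricle, and 4 were called with the fold as well (24.9%). Ttn (0.73, SE 0.11, adjusted p = 9.6e-07), Myoz2 (0.73, SE 0.08, adjusted p = 1.6e-09) and Pdlim5 (0.61, SE 0.10, adjusted p = 1.3e-05) were higher in ventricle. Actn2 (0.39, SE 0.09, adjusted p = 0.00095) and Csrp3 (0.49, SE 0.12, adjusted p = 0.0012) were higher by less. Pdlim3 was lower by 2.01 on the log2 scale, at 10.01, 12.0 and 11.4 TPM in ventricle and 75.1, 49.0 and 71.8 TPM in atria (−2.01, SE 0.30, adjusted p = 3.5e-06). Nebl was also lower in ventricle (−0.49, SE 0.09, adjusted p = 5.8e-05). With the animal as a block 7 members passed too (46.1% of all genes).

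This comparison depends on the scale, because TPM divides by a total over transcripts and the median of all genes was at −0.32 on log2(TPM + 1), against −0.03 on counts. On log2(TPM + 1) Pdlim3 (−2.43, SE 0.26) and Nebl (−1.12, SE 0.09) stayed lower in ventricle. Ttn (0.16), Pdlim5 (0.10) and Myoz2 (0.19) no longer passed, Actn2 (−0.15) and Csrp3 (−0.05) turned sign without passing, and Tcap, at 0.18 on counts, was at −0.37 and passed. Relative to the median of all genes on that scale, Ttn, Pdlim5, Myoz2, Actn2 and Csrp3 lay above it and Pdlim3, Nebl, Ankrd1 (−0.62), Ldb3 (−0.38) and Tcap (−0.37) below it. Ldb3 and Tcap were close to that median of −0.32. Ldb3 transcripts were shorter in ventricle than in atria (−0.22, SE 0.04, adjusted p = 0.0011, 1 of 10 members against 1.23% of genes), with –dox means of 2.34 ± 0.062 kb and 2.73 ± 0.024 kb (SD, n = 3).

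**Figure D4:**
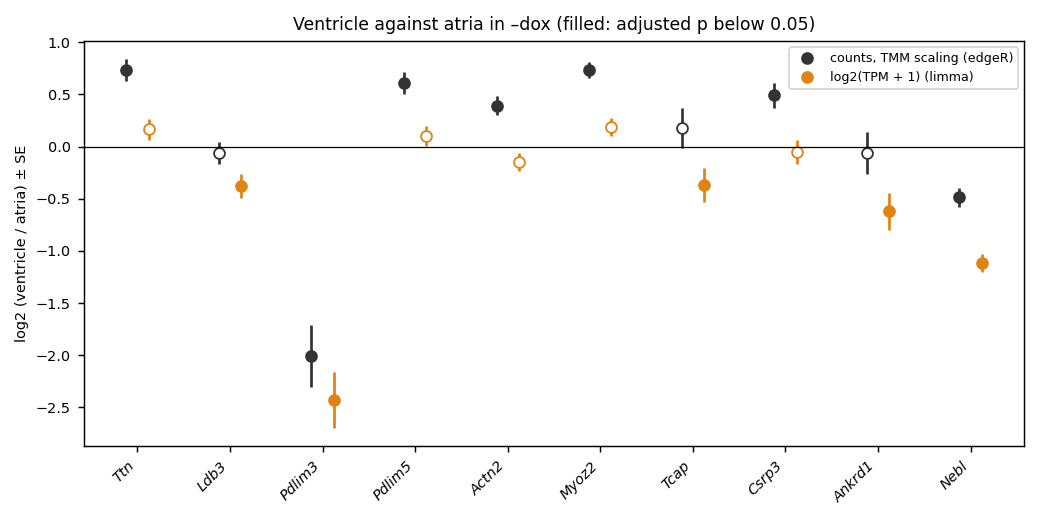
Log2 ratio of ventricle to atria in –dox mice with SE for each member, on TMM-scaled counts (dark) and on log2(TPM + 1) (orange). Filled points passed an adjusted p of 0.05. Pdlim3 and Nebl lie below 0 on both scales, and Actn2, Tcap and Csrp3 change sign between them.

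Of 54 tested genes in the lists of other Z-disc genes and titin partners, 19 passed in –dox ventricle (13 higher, 6 lower), where 20.9% of all genes did. In +/–dox ventricle 22 of the 54 passed (14 higher, 8 lower), beside 21.8% of all genes. In atria, 15 passed in –dox (7 higher, 8 lower), beside 15.9%, and 10 in +/–dox (6 higher, 4 lower), beside 12.6%. Their median log2 fold change in –dox ventricle was 0.02, beside 0.01 for all genes. Pdlim7 (Enigma), a PDZ-LIM paralog of Ldb3, was at 14.1, 14.5 and 8.73 TPM in +dox ventricle, 37.2, 35.3 and 39.9 TPM in –dox and 34.3, 40.6 and 44.3 TPM in +/–dox. It rose by 1.37 (SE 0.18) in –dox and 1.38 (SE 0.18) in +/–dox ventricle, and by 1.42 and 1.39 (SE 0.18 each) in atria. Pdlim7 also rose in all MBNL cohorts of the ventricle (0.75 to 0.93) and with MBNL1 (0.87) and MBNL1+MBNL2 (1.01) in atria. Leaving out 1 library ended the Pdlim7 call with MBNL1 in atria in 4 of 6 cases (values 0.78 to 0.98) and with MBNL1+MBNL2 in ventricle without its replicate 1 (0.65). The 3 PDZ-LIM members did not share this change: in –dox ventricle Ldb3 was at 0.30, Pdlim3 at −0.52 and Pdlim5 at 0.03.

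Capn3, a muscle calpain that binds titin, was low in ventricle, at 0.67, 0.89 and 0.57 TPM in +dox and 3.70, 3.49 and 3.72 TPM in –dox. It rose by 2.46 (SE 0.22) in –dox and 1.93 (SE 0.22) in +/–dox ventricle, and by 0.62 (SE 0.21, adjusted p = 0.042) and 0.73 (SE 0.21, adjusted p = 0.021) in atria. The atrial Capn3 calls held in 2 and 3 of 6 cases with a library left out (0.43 to 0.75 and 0.54 to 0.86). With MBNL1, MBNL2 and MBNL1+MBNL2, Capn3 rose in ventricle by 1.20, 1.21 and 1.53 (SE 0.22 each). Each of these calls held with any library left out, and Capn3 passed in no MBNL cohort of the atria. The chamber difference of Capn3 passed in –dox (1.84, adjusted p = 0.0011) and not in +/–dox (1.20, adjusted p = 0.053), where it passed with the animal as a block (1.22, adjusted p = 0.0094). Cmya5 (myospryn) rose by 0.80 and 0.77 in ventricle and by 0.88 and 1.02 in atria (SE 0.11 each). With MBNL1, MBNL2 and MBNL1+MBNL2 its ventricular values were 0.36, 0.27 and 0.36. The first and last of these Cmya5 values passed, each in 1 of 6 cases with a library left out, and none passed in atria. Myotilin (Myot), an α-actinin and filamin binding protein, rose by 1.19 (SE 0.23) in –dox and 0.74 (SE 0.23) in +/–dox ventricle and by 1.04 (SE 0.27, adjusted p = 0.0083) in –dox atria, and its change in +/–dox atria was 0.75 (SE 0.28, adjusted p = 0.074). The +/–dox ventricle call of Myot held in 3 of 6 cases with a library left out (0.51 to 0.91), and the atrial one in 4 of 6 (0.86 to 1.16). Nrap, which anchors terminal actin filaments, rose by 0.67 and 0.60 (SE 0.17 and 0.16) in ventricle and by 0.59 (SE 0.17, adjusted p = 0.014) in –dox atria, with a change of 0.38 (adjusted p = 0.14) in +/–dox atria. Without +dox replicate 3 the Nrap values in +/–dox ventricle (0.41) and –dox atria (0.46) did not pass, nor did the former without +/–dox replicate 2 (0.51). Of the M-band and titin-binding list, Myom3 (myomesin-3) fell in ventricle (−0.97 and −1.01, SE 0.25 each) and Fhl2 fell in atria (−0.97, SE 0.18 and −0.52, SE 0.17). The Myom3 calls were lost without +dox replicate 1 (−0.64 and −0.68), and the +/–dox change of Fhl2 passed in 2 of 6 cases (−0.74 to −0.34). Ankrd23, a paralog of Ankrd1, rose in –dox ventricle (0.99, SE 0.36, adjusted p = 0.0497) and +/–dox atria (1.09, SE 0.36, adjusted p = 0.047). The Ankrd23 values in +/–dox ventricle (0.92, adjusted p = 0.065) and –dox atria (1.03, adjusted p = 0.052) were close to these without passing, and both calls held in 1 of 6 cases with a library left out (0.64 to 1.33 and 0.90 to 1.41). Against +dox, Myot, Nrap, Myom3, Fhl2 and Ankrd23 passed in no MBNL cohort of either chamber. Of the calcineurin list, 1 of 4 genes passed in –dox ventricle, lower (20.9% of all genes passed), and of the 2 titin splicing regulators (Rbm20 and Rbm24) none passed on either side. By TPM the paralogs of the members were led in –dox ventricle by Ankrd23 (424 ± 95 TPM, SD, n = 3) and Pdlim7 (37.5 ± 2.31), followed by Actn4 (32.2 ± 4.02) and Pdlim1 (32.1 ± 4.64), while Actn3, Myoz1, Myoz3, Ankrd2 and Neb were at or below 0.93 TPM.

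**Figure D5:**
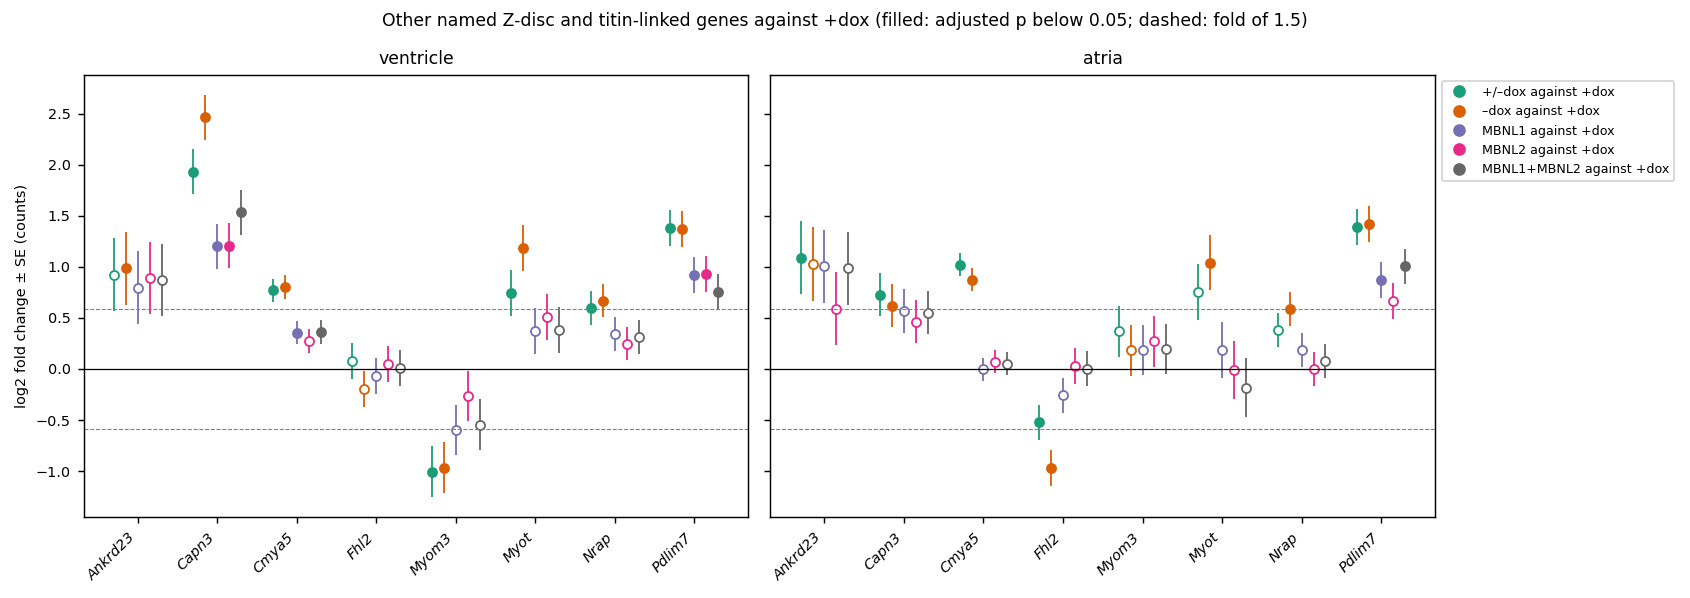
Log2 fold change on counts with SE against +dox for the 8 named genes of the other Z-disc and titin-linked lists, in ventricle and atria, drawn as for the members. Pdlim7 lies above 0 in all 10 comparisons, and Capn3 reaches 2.46 in –dox ventricle against 0.62 in –dox atria.

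Nebl was the 1 member called in –dox ventricle, and its level over the 18 ventricular libraries was most like those of Spop (Pearson's r = 0.96), Pafah1b1 (0.95) and Ogn (0.95) among 8532 genes. This is a description across libraries that share cohort, library set and depth.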

How the data were processed

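Polyadenylated RNA had been sequenced as stranded paired reads. Per the study's methods and the submitters' processing notes, the authors aligned reads with STAR 2.7.10b to mm10 (GENCODE M25) and quantified genes with RSEM 1.3.1. The strand setting given to RSEM is not given in the sources used here. The deposited tables hold RSEM expected counts and TPM, 1 column per library and 1 row per symbol. TPM depends on the mean transcript length RSEM estimates.

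Expected counts were rounded, scaled by TMM and tested with edgeR 4.0.16 (quasi-likelihood, robust, 12 group means from all 36 libraries, R 4.3.3) over 19231 genes, with Benjamini-Hochberg adjustment. "Passed" means an adjusted p below 0.05, and "called" also a fold of at least 1.5. A call said to hold or be lost with a library left out, and any call on length, refers to passing alone. The SE of a log2 fold change was derived from the F statistic. Relative transcript length, added after seeing the data, is the expected count over TPM, tested with limma 3.58.1 over 10871 genes with at least 1 TPM and a count of 20 in every library. DESeq2 1.42.0, limma on log2(TPM + 1) and log2(TPM + 0.1), other filters, a library set term, a replicate block (the animal, between chambers) and left-out libraries were alternatives. For length these were a minimum of 5 TPM, library set A alone, the animal block and left-out libraries, under which 34 values no longer passed and 16 newly passed. Scripts were tested on simulated data. Figures used matplotlib 3.10.9 under Python 3.11.15.

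The members and gene lists were chosen with earlier results of these data known. All members are named, with the list genes called without the repeat RNA (at most 3 per list and tissue), paralogs by level, and the 3 genes most like a member called in –dox. Totals were about 55032000 to 97091000 counts per library, and the depth left no member near 0. GENCODE M21 and RefSeq, both on GRCm38, gave positions, and 96.4% of symbols matched. The human MBNL cDNAs and the transgene were not analysed here.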

Additional observations from a re-analysis of the deposited data

Results flagged for a closer look

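Of the Z-disc and titin-linked genes, Capn3 differed between the chambers in its response in –dox mice by a test of the difference itself. Its rise was 2.46 (SE 0.22) on the log2 scale in ventricle and 0.62 (SE 0.21) in atria, a ventricle minus atria difference of 1.84 (SE 0.30, edgeR adjusted p = 0.0011). Among the members, Pdlim5 in +/–dox mice had all 3 libraries of one chamber above the +dox mean and all 3 of the other chamber below it. The ventricle minus atria difference of Pdlim5 was −0.18 (SE 0.15, edgeR adjusted p = 0.68), which did not pass. With the animal as a block it was −0.18 (SE 0.10, adjusted p = 0.36).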

How the results depend on the processing

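Of 3850 values of the members' fold changes under alternatives, 3687 stayed on their side of the threshold, 99 no longer passed, 58 newly passed and 6 that had passed on either scale changed sign. Of the 3687, 217 changed sign and passed in neither setting. The 6 reversed values were those of ventricle against atria on log2(TPM + 1) and log2(TPM + 0.1), Actn2 (−0.15), Tcap (−0.37) and Csrp3 (−0.052). The counts of called members that moved are given by setting. With the adjusted p alone, against +dox, 5 members passed in –dox, 6 in +/–dox, 3 in MBNL1, 2 in MBNL2 and 2 in MBNL1+MBNL2 ventricle, and 2 in –dox and 3 in +/–dox atria. Against +/–dox atria 1, 3 and 1 passed with MBNL1, MBNL2 and MBNL1+MBNL2, and 7 passed between chambers. On the TPM scale 3 were called in +/–dox ventricle, 1 in –dox atria and 1 in MBNL1+MBNL2 atria, and against +/–dox 1 in MBNL2 ventricle and, with a pseudocount of 1, 1 in MBNL1+MBNL2 atria. With DESeq2, 1 was called in MBNL1+MBNL2 atria, and against +/–dox 1 in MBNL2 ventricle and 1 in MBNL1+MBNL2 atria. With a library set term, MBNL1+MBNL2 had 2 in ventricle and 1 in atria, and 1 in ventricle against +/–dox. With no filter on low counts, and with only the compared libraries, 0 were called in MBNL1 ventricle and +/–dox atria, and with no filter 0 in MBNL2 against +/–dox atria. In library set A alone, an alternative chosen after seeing the data, 0 were called in –dox and MBNL1 ventricle, in +/–dox atria and in MBNL2 against +/–dox atria, with fewer samples. With 1 library left out, the counts ranged from 1 to 2 in +/–dox ventricle, and from 0 to 1 in MBNL1 and MBNL1+MBNL2 ventricle, +/–dox atria, and MBNL2 against +/–dox in both tissues. Apart from sample or gene number, the cause was not tested.

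Replicate numbers did not pair the cohorts within a chamber: deviations of same-numbered libraries correlated at −0.12 to 0.19 in ventricle and −0.15 to 0.29 in atria. Over 0.1 were 9 of 45 such pairs in ventricle and 16 of 45 in atria. The 18 same-numbered pairs of ventricle and atria of a cohort all correlated above 0 (0.041 to 0.257, 11 of them over 0.1), and the animal block is used in the comparisons between chambers. Those pairs also share library set and sex by Xist, so the correlations cannot show that they come from 1 animal. With the replicate block, 1 member was called in –dox ventricle, as without it, and Csrp3 in –dox atria (adjusted p = 0.042) and Tcap in MBNL1+MBNL2 ventricle (adjusted p = 0.041) newly passed. With 3 libraries per cohort, small changes may be missed.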
